A study of Mus musculus with 4 samples.

Results

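The tubulin genes of skeletal muscle were examined in quadriceps of mice with a mutation in titin. Tubulin isotypes were taken by gene symbol, 9 genes in all, and 7 of them were measured among the 15267 named genes of the arrays. The measured genes were the beta isotypes Tubb6, Tubb2a, Tubb5 and Tubb3, the alpha isotypes Tuba8 and Tuba4a, and the gamma-tubulin gene Tubg1. Tuba1a and Tubb2b were not analysed here. The genes were chosen with their mdm mutant and wild type values known, so their differences between the groups are given as a description, with no p-value. RNA from quadriceps of 4 mice was hybridised to Affymetrix arrays, with a separate array for each animal. In the first group, 2 mdm mutant mice carried the titin mutation, and in the second, 2 wild type mice did not carry it. All 4 mice had the strain label B6C3Fe a/a-Ttnmdm/J, so the a/a alleles of the background were shared by both groups, and the labels state neither age nor sex nor zygosity. In the mdm strain the mutation is a spontaneous one in the part of titin that lies in the spring-like I-band region, and affected mice develop muscular dystrophy with myositis.

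Microtubules are hollow polymers of alpha- and beta-tubulin pairs, and gamma-tubulin sits in the ring complex from which new microtubules grow. Mammals have several genes for alpha- and beta-tubulin, whose proteins differ mainly in their acidic tails, where enzymes remove or add amino acids. In muscle fibres microtubules form a lattice under the membrane and around the nuclei that guides transport and bears load. Tubb6, the class V beta-tubulin, is known to be raised in dystrophin-deficient mdx mouse muscle and in regenerating fibres.

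The deposited values were on the log2 scale, between 5.42 and 14.98, with a median of 7.28 on each array. A difference of 1 therefore stands for a doubling. Differences are mdm mutant minus wild type with the standard error from limma, a linear model fitted across all 16492 probe sets tested, and n = 2 mice per group throughout. The number of arrays limits the precision. A level can be compared between mice for the same gene but not between genes, since each probe set has its own brightness. The tissue label was checked on markers of mature muscle fibres, of which 14 of 15 listed were measured, and they were bright, with mean levels of 14.03 and 13.97 in mdm mutant mice and 13.95 and 13.99 in wild type mice. Of these 14, 1 gene rose, 0 fell, and 1 had an unadjusted p under 0.05. The 1 called is 7.14% of the 14, beside 12.8% of all probe sets. It was desmin (Des, the intermediate filament that ties myofibrils together, by 0.44 ± 0.08, adjusted p = 0.0300 by limma). The call for Des was kept without mdm mutant 1 (adjusted p = 0.0279) and lost without mdm mutant 2 (0.0766), wild type 1 (0.115) or wild type 2 (0.122). Titin itself (Ttn) read 12.66 and 12.68 in mdm mutant mice and 12.58 and 12.65 in wild type mice, and did not pass the test (adjusted p = 0.564). Whether that probe set overlaps the mutated stretch is unknown here, and its level is therefore no check of genotype.

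The beta isotypes Tubb6, Tubb2a and Tubb5 were higher in mdm mutant quadriceps, the alpha isotypes Tuba8 and Tuba4a and the gamma gene Tubg1 were lower, and Tubb3 was dim and overlapped between the groups. The largest difference among them was 4.36-fold, for Tubb6, and the smallest apart from Tubb3 was 1.20-fold, for Tubg1. By class, the differences ran from 0.03 to 2.12 over the 4 beta genes, from −0.97 to −0.44 over the 2 alpha genes, and stood at −0.26 for the gamma gene. In the fit across all probe sets, 6 of the 7 genes had an adjusted p under 0.05, while 12.8% of all probe sets did, and the groups did not overlap in the same 6, as they did not in 60.9% of all probe sets. The genes were picked from this contrast, so nothing is read from those counts. The tissue was bulk muscle, in which more or fewer cells of a type and more or less RNA per cell cannot be told apart.

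**Figure D1:**
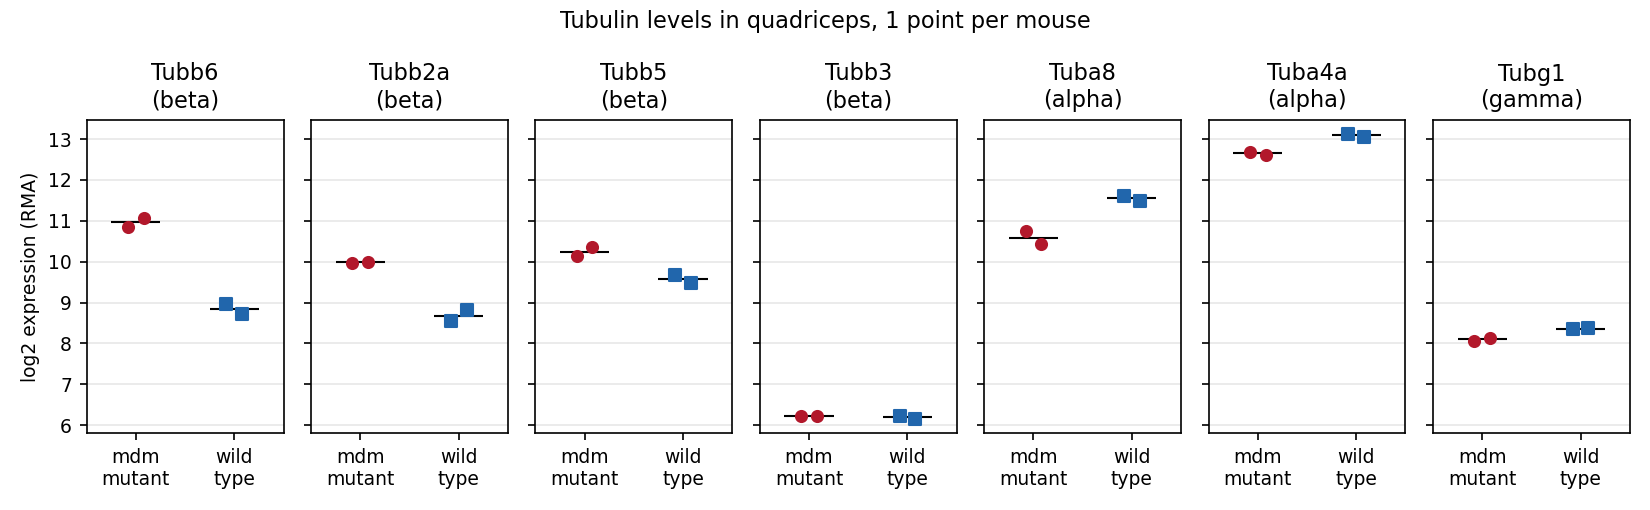
Log2 expression (RMA, vertical axis) of the 7 measured tubulin genes in each mouse, mdm mutant (circles) left of wild type (squares), with 1 point per mouse and a line at the mean of the group of 2. Tubb6, Tubb2a and Tubb5 lie higher in mdm mutant mice, Tuba8, Tuba4a and Tubg1 lie lower, and Tubb3 overlaps between the groups.

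Tubb6 (Entrez 67951) had levels of 10.86 and 11.07 in mdm mutant mice and of 8.96 and 8.73 in wild type mice. Each mdm mutant mouse lay above each wild type mouse, and the nearest pair of mice was 1.90 apart. The difference was 2.12 ± 0.11 (95% interval 1.86 to 2.39), or 4.36-fold, and 18 of the 16492 probe sets showed a larger rise. With any 1 mouse left out the difference of Tubb6 stayed between 2.01 and 2.24.

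Tubb2a (Entrez 22151), a class II beta-tubulin prominent in neurons and in developing tissue, had levels of 9.97 and 9.999 in mdm mutant mice and of 8.55 and 8.81 in wild type mice. The mdm mutant mice were close to each other, and both lay above the wild type mice by at least 1.16. The difference was 1.30 ± 0.09 (95% interval 1.07 to 1.54), or 2.47-fold, and 54 probe sets showed a larger rise. The arrays also carried a probe set for the pseudogene Tubb2a-ps2, a near copy of Tubb2a, between which and the gene signal may be shared by cross-hybridisation. It was dim and overlapped between the groups, at 5.82 and 5.94 in mdm mutant mice and 5.84 and 5.82 in wild type mice.

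Tubb5 (Entrez 22154), the class I beta-tubulin that most cell types make, had levels of 10.15 and 10.35 in mdm mutant mice and of 9.66 and 9.47 in wild type mice. The groups did not overlap, with 0.48 between the nearest mice. The difference was 0.68 ± 0.10 (95% interval 0.43 to 0.93), or 1.60-fold. The rise of Tubb6 was larger than that of Tubb5 by 1.44 on the log2 scale. That gap between the genes varied by 0.01 within the mdm mutant mice and by 0.04 within the wild type mice, although each gene alone varied by about 0.2 within a group.

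Tubb3 (Entrez 22152), the class III beta-tubulin used as a marker of neurons, had levels of 6.21 and 6.22 in mdm mutant mice and of 6.23 and 6.15 in wild type mice. The groups overlapped, and the readings were in the low part of the range of the arrays. The difference was 0.03 ± 0.06 (95% interval −0.11 to 0.17), which is far from the sizes of Tubb6 and Tubb2a. Tubb3 thus had no rise beyond 1.12-fold within its interval, but a dim probe set can also hide a change.

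Tuba8 (Entrez 53857), an alpha isotype found mainly in striated muscle and testis, had levels of 10.75 and 10.42 in mdm mutant mice and of 11.62 and 11.49 in wild type mice. Both mdm mutant mice were below both wild type mice. The difference was −0.97 ± 0.12 (95% interval −1.27 to −0.67), a level 1.96-fold lower, and 39 probe sets showed a larger fall. The mdm mutant mice lay further apart from each other for Tuba8 than for any of the other 6 genes, by 0.33.

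Tuba4a (Entrez 22145), an alpha isotype whose gene encodes no final tyrosine, had levels of 12.69 and 12.62 in mdm mutant mice and of 13.13 and 13.06 in wild type mice. The 2 groups were separated by 0.37 at the nearest mice, against 0.07 between the mice of either group. The difference was −0.44 ± 0.06 (95% interval −0.59 to −0.30), a level 1.36-fold lower. Tuba8 was lowered more than Tuba4a, by 0.52 on the log2 scale, and that gap between the genes varied by 0.26 within mdm mutant mice and by 0.06 within wild type mice.

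Tubg1 (Entrez 103733), the main gamma-tubulin of dividing and non-dividing cells, had levels of 8.07 and 8.13 in mdm mutant mice and of 8.35 and 8.38 in wild type mice. The groups did not overlap. The difference of −0.26 ± 0.05 (95% interval −0.40 to −0.13) was the smallest of the 6 genes whose groups were apart, and it was −0.15 with the arrays centred on their hybridization controls, spiked-in bacterial and phage sequences.

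Promoters of 2 beta isotypes that were higher and of both alpha isotypes, which were lower, are shown to set their sequences side by side. They run from 250 bases before to 50 bases after the RefSeq start of the gene, in assembly GRCm38.p6. Of the 7 genes, 5 had a promoter in the RefSeq table, and 4 are printed, 5′ to 3′ on the strand of the gene. Capitals mark 4 motifs, which did not overlap each other and were searched on both strands. They are the TATA box TATAAA, the GC box GGGCGG, the CCAAT box spelled by its name, and the E-box CAGCTG, which myogenic factors can bind.
Tubb2a, chr13:34077959-34078258, - strand: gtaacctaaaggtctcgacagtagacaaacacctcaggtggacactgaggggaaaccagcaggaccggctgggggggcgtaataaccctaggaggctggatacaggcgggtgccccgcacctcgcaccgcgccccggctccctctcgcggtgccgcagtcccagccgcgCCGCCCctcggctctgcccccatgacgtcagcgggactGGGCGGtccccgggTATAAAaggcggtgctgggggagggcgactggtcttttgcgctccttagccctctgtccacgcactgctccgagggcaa
Tubb5, chr17:35838252-35838551, - strand: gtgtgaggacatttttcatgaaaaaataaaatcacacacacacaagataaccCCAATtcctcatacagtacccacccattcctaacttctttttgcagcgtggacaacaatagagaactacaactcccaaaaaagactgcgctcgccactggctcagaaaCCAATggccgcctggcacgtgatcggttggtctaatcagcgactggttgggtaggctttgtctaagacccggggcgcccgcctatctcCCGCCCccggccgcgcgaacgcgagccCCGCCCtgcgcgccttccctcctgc
Tuba4a, chr1:75219245-75219544, - strand: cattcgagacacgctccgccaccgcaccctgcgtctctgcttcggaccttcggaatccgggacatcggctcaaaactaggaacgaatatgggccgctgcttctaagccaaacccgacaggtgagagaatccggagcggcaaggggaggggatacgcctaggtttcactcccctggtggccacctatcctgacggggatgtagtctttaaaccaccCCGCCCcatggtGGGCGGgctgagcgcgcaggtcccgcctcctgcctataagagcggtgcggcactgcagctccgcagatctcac
Tuba8, chr6:121210484-121210783, + strand: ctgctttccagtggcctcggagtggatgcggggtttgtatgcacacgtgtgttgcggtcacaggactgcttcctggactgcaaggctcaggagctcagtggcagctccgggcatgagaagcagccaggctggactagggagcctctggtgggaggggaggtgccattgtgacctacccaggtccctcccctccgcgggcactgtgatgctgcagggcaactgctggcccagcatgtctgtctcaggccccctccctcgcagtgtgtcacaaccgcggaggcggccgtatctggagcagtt
The Tubb2a window held TATAAA beginning 29 bases before the start, and GGGCGG on either strand beginning 81 and 43 bases before it. The Tubb5 window held CCAAT beginning 198 and 90 bases before the start and GGGCGG beginning 2 bases before and 25 bases after it. The Tuba4a window held GGGCGG beginning 35 and 23 bases before the start, and the Tuba8 window held none of the 4 motifs. CAGCTG was in none of these windows. Of the 32851 promoters of the same length in the table, 13.6% held TATAAA, 35.7% GGGCGG, 37.4% CCAAT and 16.3% CAGCTG. The matches are a description of letters, and the arrays did not measure binding.

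Of 11 remaining tubulin genes listed by family, 5 were measured, and in limma 0 rose, 1 fell and 4 did not pass, with 3 at an unadjusted p under 0.05, a level that 30.7% of all probe sets reached. The 1 called is 20.0% of the 5, beside 12.8% of all probe sets. The differences went both ways, between −0.35 and 0.18, with a median of −0.02, beside −0.02 over all probe sets. Regardless of sign, that of Tubd1 was larger than those of 89.6% of all probe sets, that of Tuba3a than 72.9% and that of Tubb4a than 72.3%. The gene that fell was Tubd1, delta-tubulin, a centriole component, with levels of 7.13 and 7.26 in mdm mutant mice and 7.55 and 7.54 in wild type mice (−0.35 ± 0.06, adjusted p = 0.0285 by limma). It was not called without mdm mutant 1 (adjusted p = 0.0804) or 2 (0.0573), without wild type 1 (0.114) or 2 (0.113), or with the arrays centred on the hybridization controls (0.0645), a setting that took Tuba3a past the test (0.0189). The alpha gene Tuba3a, known mainly from testis, read 7.53 in both mdm mutant mice and 7.34 and 7.35 in wild type mice (0.18 ± 0.05, adjusted p = 0.0688). The beta gene Tubb4a, a brain isotype, read 7.30 and 7.33 in mdm mutant mice and 7.45 and 7.54 in wild type mice (−0.18 ± 0.06, adjusted p = 0.0989). Its sign was thus opposite to that of Tubb6, Tubb2a and Tubb5, and that of Tuba3a opposite to that of Tuba8 and Tuba4a, but neither passed the test. Tubg2, the neighbour of Tubg1 on the genome, and Tube1, epsilon-tubulin, differed by −0.02 ± 0.09 and 0.03 ± 0.05.

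**Figure D2:**
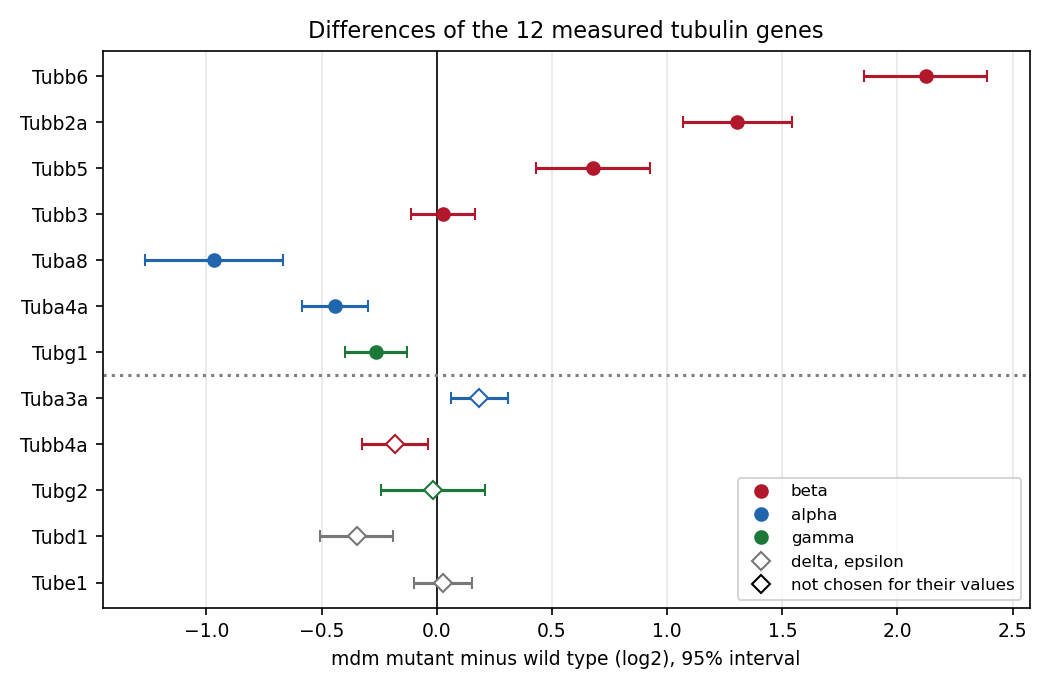
Difference in log2 expression, mdm mutant minus wild type (horizontal axis), with its 95% interval, for the 12 measured tubulin genes. Filled circles above the dotted line are the 7 genes chosen with their values known, and open diamonds below it are the 5 other tubulin genes, none of which differs by more than 0.35.

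Around the tubulins, genes of 6 lists of the microtubule system were counted. Of 120 measured, 12 rose, 8 fell and the other 100 were not called, which is 16.7% past the test beside 12.8% of all probe sets, with a median difference of −0.01. Of all probe sets, 6.46% rose and 6.36% fell. Centred on the hybridization controls, 27 of the 120 rose and 4 fell, while 2829 of all probe sets rose and 603 fell. Of the 30 named genes called outside the 7 tubulins, 0 were called without variance moderation, under which each gene is judged by its own spread over 4 arrays alone. The counts over the 120 genes of the 6 lists changed with the mice used. Without mdm mutant 1, 9 of these genes rose and 2 fell. Without mdm mutant 2, 4 rose, without wild type 1, 3 rose, and without wild type 2, 2 rose, and 0 fell in each of these.

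The list of tubulin modification genes held the largest rise of the 6 lists. Of 18 measured modification genes, 2 rose, 0 fell and 16 did not pass in limma, with 4 at an unadjusted p under 0.05 and a median of −0.02. The 2 are 11.1% of the list, beside 12.8% of all probe sets. Both that rose encode parts of a carboxypeptidase that removes the final tyrosine of alpha-tubulin, and removal of tyrosine was not measured. Its catalytic subunit gene Vash2 had levels of 8.05 and 8.05 in mdm mutant mice and 6.88 and 6.72 in wild type mice (1.26 ± 0.07, 2.39-fold, adjusted p = 0.00297). The rise of Vash2 held with any 1 mouse left out, with an adjusted p between 0.0128 and 0.0205. Its partner gene Svbp, a small chaperone of the enzyme, had levels of 9.81 and 9.83 in mdm mutant mice and 9.42 and 9.33 in wild type mice (0.44 ± 0.06, adjusted p = 0.0128). The call for Svbp was kept without mdm mutant 1 (adjusted p = 0.0443) or wild type 1 (0.0489) and lost without mdm mutant 2 (0.0616) or wild type 2 (0.0640).

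Genes that fold tubulin moved in both directions. Of 20 measured, 3 rose, 2 fell and 15 did not pass, with 9 at an unadjusted p under 0.05 and a median of 0.11. The share called was the highest of the 6 lists and above the 12.8% of all probe sets. An unadjusted p under 0.05 was reached by 30.7% of all probe sets, a smaller share than in the folding list. The cofactors Tbcb and Tbca, which receive newly folded alpha- and beta-tubulin, rose by 0.39 ± 0.05 and 0.29 ± 0.06 (adjusted p = 0.0150 and 0.0409 by limma). Cct2, a subunit of the ring chaperonin that folds tubulin and actin, rose by 0.31 ± 0.06 (adjusted p = 0.0300). The prefoldin subunits Pfdn1 and Vbp1, which hand unfolded tubulin to that chaperonin, fell (−0.38 ± 0.06 and −0.36 ± 0.06, adjusted p = 0.0240 and 0.0211). Without mdm mutant 1 Tbcb alone of these 5 kept its call (adjusted p = 0.0426) and the cofactor gene Tbcd rose (0.0284), and none of the 5 kept it without mdm mutant 2, wild type 1 or wild type 2 (adjusted p between 0.0553 and 0.153). With eBayes trend and robust Cct2 and Tbca were not called (0.0590 and 0.0680). Centred on the hybridization controls, 7 folding genes rose and 2 fell. The added rises were Tbcd, Cct7, Cct8 and the prefoldin subunit gene Pfdn5 (adjusted p between 0.0159 and 0.0488 by limma).

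Of 19 measured genes of the gamma-tubulin ring and of nucleation, 0 rose, 3 fell and 16 did not pass in limma, with 4 at an unadjusted p under 0.05 and a median of −0.04. The 3 are 15.8% of the list, beside 12.8% of all probe sets. Centred on the hybridization controls, 2 rose and 1 fell. The 2 were Akap9, a scaffold of the centrosome and Golgi, and Haus5, of the augmin complex that branches microtubules (0.21 and 0.20, adjusted p = 0.0440 and 0.0480), and like the other genes named only for such a setting they were chosen after their values were seen. Nedd1, which recruits the ring complex to centrosomes and spindles, fell by 0.41 on the log2 scale (adjusted p = 0.0125), with levels of 7.65 and 7.64 in mdm mutant mice and 8.07 and 8.03 in wild type mice. Mzt2, a small subunit of the ring, and Haus1, also of the augmin complex, fell too (−0.27 ± 0.05 and −0.25 ± 0.05, adjusted p = 0.0310 and 0.0410). Nedd1 kept its call without mdm mutant 1 (adjusted p = 0.0426), and none of the 3 did without mdm mutant 2, wild type 1 or wild type 2 (0.0594 to 0.162). Of the 3, Mzt2 and Haus1 were not called with that centring (adjusted p = 0.0964 and 0.116), and with eBayes trend and robust Haus1 was not (0.0588).

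Proteins that bind, sever or move along microtubules changed singly. Of 23 binding and plus-end genes, 3 rose, 1 fell and 19 did not pass, with a median of 0.02. The share called was 17.4%, beside 12.8% of all probe sets. The rises were Macf1, a linker between microtubules and actin (0.72 ± 0.08, adjusted p = 0.0103 by limma), Map4, the main microtubule-associated protein of muscle (0.42 ± 0.05, 0.0127), and Map1b, typical of growing neurons (0.37 ± 0.08, 0.0374), and Clasp2, a stabiliser of plus ends, fell by 0.33 on the log2 scale (0.0252). Of 13 destabilising and severing genes, 0 rose, 1 fell and 12 did not pass in limma, with 4 at an unadjusted p under 0.05 and a median of 0.00. The 1 called is 7.69% of that list, beside 12.8% of all probe sets. When centred on the hybridization controls 2 rose, Stmn4 and Katnal2 (adjusted p = 0.0141 and 0.0288), and Stmn4 also with eBayes trend and robust (0.0369). The gene that fell was the severing enzyme Spast, at 8.81 and 8.74 in mdm mutant mice and 9.24 and 9.20 in wild type mice (−0.44 ± 0.05, adjusted p = 0.0124). Without wild type 1 or wild type 2 none of these 5 genes was called (adjusted p between 0.0523 and 0.138). Without mdm mutant 1 Macf1, Map4 and Spast were called (adjusted p up to 0.0434), and without mdm mutant 2 Macf1 was (0.0232). Clasp2 was not called when centred on the hybridization controls (0.0602).

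Of 27 transport motor genes, 4 rose, 1 fell and 22 did not pass, with a median of −0.04. The share called was 18.5%, beside 12.8% of all probe sets, and 12 had an unadjusted p under 0.05. Centred on the hybridization controls, 8 rose and 0 fell, with Klc1, Dync1i1, Dync1i2 and Dctn2 added (adjusted p between 0.0355 and 0.0386). Kif1c fell by 0.33 with eBayes trend and robust (0.0452) and with dim probe sets removed (0.0481). Kif5b, the heavy chain of conventional kinesin that positions nuclei in muscle fibres, had levels of 10.45 and 10.26 in mdm mutant mice and 9.65 and 9.67 in wild type mice (0.69 ± 0.08, adjusted p = 0.00992 by limma). Of the dynein genes, the light chain gene Dynll1 rose by 0.50 ± 0.05, the heavy chain gene Dync1h1 by 0.40 ± 0.06 and the light intermediate chain gene Dync1li2 by 0.32 ± 0.07 (adjusted p = 0.00824, 0.0183 and 0.0450), and the kinesin-2 gene Kif3c fell by 0.35 on the log2 scale (0.0371). Dynll1 was called with any 1 mouse left out (adjusted p up to 0.0475). Kif5b lost its call without wild type 1 (0.0542) or wild type 2 (0.0528). Dync1h1 kept its call without mdm mutant 1 (0.0367) and lost it without mdm mutant 2 (0.0751), wild type 1 (0.0741) or wild type 2 (0.0884), and Dync1li2 and Kif3c were lost with each mouse left out (up to 0.170 and 0.131). Kif3c was also lost when centred on the hybridization controls (0.0798).

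**Figure D3:**
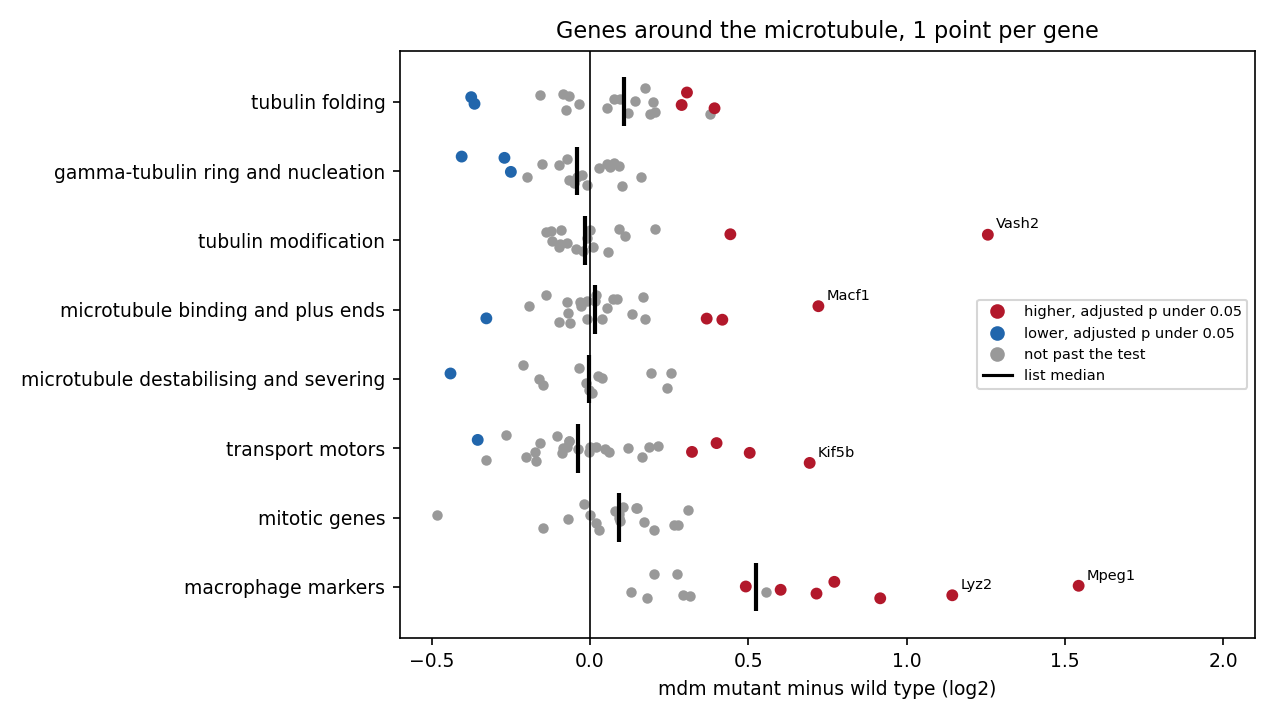
Difference in log2 expression, mdm mutant minus wild type (horizontal axis), for each measured gene of 8 lists, 1 point per gene, with the list median as a black bar. Red and blue points passed the test as higher and lower, and Vash2 stands apart from the other modification genes at 1.26.

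Several tubulins also varied between mice of the same genotype, and marker lists varied too, not all with the same order of mice. Tubb6 and Tubb5 were higher in mdm mutant 2 than in mdm mutant 1, by 0.21 and 0.20, and higher in wild type 1 than in wild type 2, by 0.23 and 0.19. All 19 measured mitotic genes had that same order of mice in both groups, as did 11 of 14 macrophage markers, beside 24.6% of all probe sets. It was shared by 3 of 10 neuron and Schwann cell, 2 of 8 fibroblast, 0 of 10 endothelial and 0 of 14 mature muscle fibre markers. The genes of a list were read in the same 4 mice, so these counts are a description. Tubb3, which was dim, also had this order, with smaller gaps. Tubb2a did not share it, being higher in wild type 2 than in wild type 1 by 0.26, and Tuba8 and Tuba4a were lower in mdm mutant 2 than in mdm mutant 1, by 0.33 and 0.07.

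Macrophage markers were higher in mdm mutant mice, as Tubb6, Tubb2a and Tubb5 were. Of 14 measured, 7 rose, 0 fell and 7 did not pass in limma, with 13 at an unadjusted p under 0.05 and a median of 0.52. Both shares were above those of all probe sets, of which 12.8% were called and 30.7% had an unadjusted p under 0.05. The mean level of the macrophage markers was 8.69 and 8.90 in mdm mutant mice and 8.25 and 8.17 in wild type mice. The largest rises were those of Mpeg1, a pore-forming protein of phagocytes (1.54 ± 0.15, adjusted p = 0.00824), lysozyme gene Lyz2 (1.14 ± 0.13, 0.0111) and the leukocyte phosphatase gene Ptprc (0.92 ± 0.10, 0.0109). Without mdm mutant 1, 8 markers rose, without mdm mutant 2, 4 did, and without wild type 1 or wild type 2, 2 did, while 13 rose when centred on the hybridization controls. Lyz2 was lost without wild type 2 (adjusted p = 0.0605), and Ptprc without wild type 1 (0.0509) or wild type 2 (0.0601). The part of macrophages in the tubulin differences was not tested.

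The mean level of the mitotic genes did not separate the groups. Of 19 measured, 0 rose and 0 fell in limma, with 2 at an unadjusted p under 0.05, and with eBayes trend and robust 1 fell (Aurka, adjusted p = 0.0437), while 0 did without moderation. Centred on the hybridization controls 1 rose, the checkpoint kinase gene Bub1 (adjusted p = 0.0487). The smallest p was that of the spindle kinase gene Aurka, at 6.81 and 7.05 in mdm mutant mice and 7.54 and 7.28 in wild type mice (−0.48 ± 0.12, adjusted p = 0.0557). The mean level of the list was 6.81 and 7.06 in mdm mutant mice and 6.99 and 6.74 in wild type mice, so the groups overlapped. The part of dividing cells in the tubulin differences was not tested.

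Of 10 neuron and Schwann cell markers, 0 rose and 0 fell in limma, with 1 at an unadjusted p under 0.05, and 0 passed with eBayes trend and robust or without moderation, but 1, the myelin gene Pmp22, rose when centred on the hybridization controls (adjusted p = 0.0436). The smallest p was that of the neurofilament gene Nefl, at 6.42 and 6.47 in mdm mutant mice and 6.56 and 6.67 in wild type mice (−0.17 ± 0.06, adjusted p = 0.126). The mean level of the list was 7.10 and 7.09 in mdm mutant mice and 7.15 and 7.10 in wild type mice. The neuronal tubulins Tubb3 and Tubb4a were likewise not higher in mdm mutant mice, and Tubb2a was.

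The list of endothelial markers had a median difference of −0.32. Of 10 measured, 0 rose, 2 fell and 8 did not pass in limma, with 5 at an unadjusted p under 0.05. The 2 are 20.0% of the list, beside 12.8% of all probe sets. Without mdm mutant 1, 6 fell, Robo4 with Cdh5, Kdr, Tek, Esam and Egfl7 (adjusted p up to 0.0458), without wild type 2 only Cldn5 did (0.0496), and without mdm mutant 2 or wild type 1, 0 did. With all 4 mice the 2 were the vessel receptor gene Robo4 and the junction protein gene Pecam1 (−0.44 ± 0.10 and −0.33 ± 0.07, adjusted p = 0.0435 and 0.0368). Robo4 kept its call without mdm mutant 1 (0.0263) and lost it without mdm mutant 2 (0.0917), wild type 1 (0.150) or wild type 2 (0.153), and Pecam1 lost it with each mouse left out (0.0642 to 0.143). Neither was called when centred on the hybridization controls (0.0548 and 0.0706). The mean level of the list was 8.44 and 8.11 in mdm mutant mice and 8.64 and 8.56 in wild type mice, and it was lower in mdm mutant 2 than in mdm mutant 1, as Tuba8 was. Of 8 fibroblast markers, 3 had an unadjusted p under 0.05, and the median difference was 0.05. In limma 1 rose, 0 fell and 7 did not pass, which is 12.5% called beside 12.8% of all probe sets. The 1 was the proteoglycan gene Lum (0.42 ± 0.05, adjusted p = 0.0130), called without mdm mutant 1 (0.0355) and not without mdm mutant 2 (0.0616), wild type 1 (0.0643) or wild type 2 (0.0693). Centred on the hybridization controls, 3 fibroblast markers rose, Lum with Col3a1 and Dcn (adjusted p = 0.0213 and 0.0280 for these). The part of endothelial cells and fibroblasts in the tubulin differences was not tested.

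**Figure D4:**
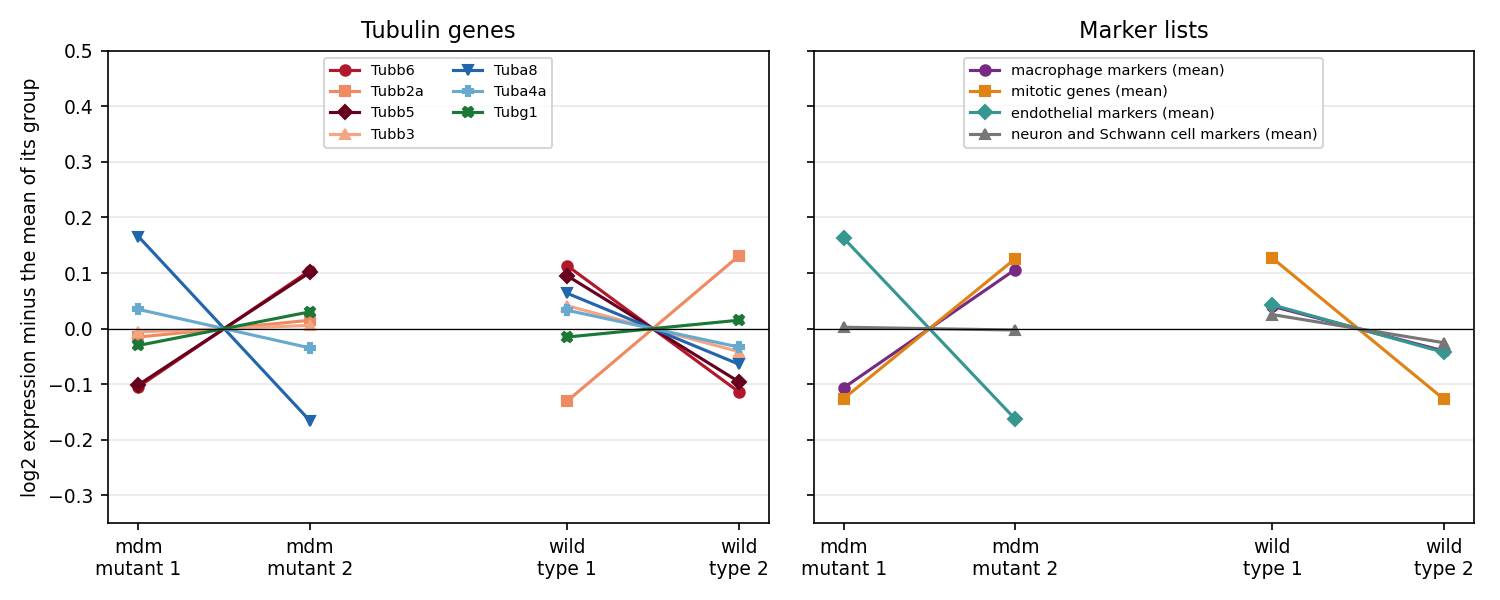
Log2 expression minus the mean of its group (vertical axis) in each mouse, for the 7 measured tubulin genes (left) and for the mean level of 4 marker lists (right). With 2 mice per group the points of a group mirror each other. Tubb6, Tubb5, Tubb3 and the means of the mitotic genes and macrophage markers share the order of mice in both groups.

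The genes whose 4 values, each centred on its mean, lay nearest to those of Tubb6 were Mymx, Tnnt2, Cyp2f2, Krt18 and Gm13889, by Euclidean distance over 4 arrays. Mymx, the micropeptide that drives fusion of myoblasts, was nearest at a distance of 0.16, with levels of 8.56 and 8.73 in mdm mutant mice and 6.51 and 6.23 in wild type mice. Tnnt2, the cardiac troponin T that immature muscle also makes, followed at 0.24, with levels of 9.66 and 9.92 in mdm mutant mice and 7.58 and 7.29 in wild type mice. Cyp2f2, a cytochrome P450, and Krt18, a keratin, were at 0.31 and 0.33, and Gm13889 was at 0.34. The measure takes in the difference between the groups, so it is a description of these 4 arrays.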

How the data were processed

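Quadriceps RNA of 2 mdm mutant and 2 wild type mice, grouped by the genotype label, was hybridised to Affymetrix arrays. In the sample titles Ttn+ stands for an animal with the mutation and Ttn- for one without, per the labels' source names, which go with the genotype label. The authors deposited RMA output on the log2 scale, as the submitters' processing notes and the values show. RMA brings the arrays to 1 distribution, so a shift of most genes in 1 direction would not be visible. The sources used here do not name the array model, and depth has no counterpart on arrays.

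The table had 16553 probe sets, and 61 of them, array controls, were not tested. Of 16492 tested, 15270 had 1 gene symbol, 0 several and 1222 none, from the platform annotation checked by Entrez identifier against RefSeq (GRCm38.p6). A gene with several probe sets was represented by the brightest on average. Differences were fitted with limma 3.58.1 in R 4.3.3 (lmFit, eBayes, trend and robust off, no covariates), Benjamini-Hochberg adjustment across the whole table and calls at an adjusted p under 0.05. The fit was also run on simulated data with independent noise in each probe set, and nothing reported here rests on that run. Figures used matplotlib 3.10.9.

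The members, gene lists and alternatives were chosen with earlier results of these data known. Named genes were the tubulins, Ttn, up to 3 largest called rises and falls of each list or its smallest p, genes of counts up to 5, and the 5 genes most like Tubb6. Counts over the 30 named genes also took in C1qb and Fcgr3, the next largest rises among the macrophage markers. Alternatives were other scalings, a filter on dim probe sets, other variance models and thresholds, averaging a gene's probe sets, and each mouse left out.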

Additional observations from a re-analysis of the deposited data

How the results depend on the processing

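The differences of Tubb6, Tubb2a, Tubb5, Tuba8, Tuba4a and Tubg1 kept their direction under every scaling that was run. The filter and the variance models leave a difference unchanged, so they could not test its direction. Leaving out a mouse could not test it either, since the groups did not overlap in these genes. Without wild type 2 the difference of Tubb3, whose groups overlapped, was −0.01. Centring the arrays on the 18 hybridization controls raised every difference by about 0.11, which took Tubb3 to 0.14, Tuba4a to −0.33 and Tubg1 to −0.15, Tuba3a past the test (0.30) and Tubd1 out of it (−0.24, adjusted p = 0.0645), and the median of all probe sets from −0.02 to 0.09. Under it 3432 probe sets passed, 2829 higher and 603 lower, in place of 2115, 1066 higher and 1049 lower. Of the microtubule genes of 6 lists, 27 then rose and 4 fell, in place of 12 and 8.

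Without variance moderation 1 probe set passed, 0 microtubule genes rose and 0 fell, and Tubd1 (−0.35) did not pass (adjusted p = 0.228). At an adjusted p under 0.01, 304 probe sets passed, 3 microtubule genes rose and 0 fell, and Tubd1 (−0.35) did not pass. At 0.10, 3719 passed, among them Tuba3a (0.18) and Tubb4a (−0.18). With 1 mouse left out, 490 to 1182 probe sets passed, 2 to 9 microtubule genes rose and 0 to 2 fell, and Tubd1 differed by −0.41 to −0.28 and was not called. Such a fit has 1 mouse in a group and assumes that it varies like the others. Of the 30 named genes called outside the 7 tubulins, 3 (Vash2, Dynll1 and Mpeg1) were called with any 1 mouse left out. No paired analysis was possible because the labels give no numbers shared between the groups. With 2 arrays per group, the dim readings of Tubb3, Tubg2 and Tube1 limit what can be said of them.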
